A study of Mus musculus with 13 samples.

Results

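H3K27me3 regions shared by 2 or more of 4 mouse leukaemia cell lines are described here. Peaks of the lines 748T, 106A, 961C and SCL-LMO1 were merged wherever they overlapped by at least 1 bp, which gave 34848 regions. Of these, 2612 (7.50%, 95% interval 7.22 to 7.78) held peaks of 2 or more lines and are called shared, and 32236 held peaks of a single line. Shared regions made up 18.3% of the bases under H3K27me3, 2.37 of 12.9 Mb. The members were chosen by the presence of H3K27me3 peaks, so the number of lines, width, height and position of the shared regions are given as description, without a test. Intervals of shares are exact Clopper-Pearson intervals, and those of medians come from order statistics. They cover counting error only, and neighbouring regions are not independent.

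The study set H3K4me3 and H3K27me3 beside the chromatin binding of NP23, the fusion of NUP98 with PHF23, by chromatin immunoprecipitation and sequencing. Lines 748T and 106A are lymphoblast lines from NUP98-PHF23 pre-T LBL of mouse 748 and mouse 106, both on C57BL/6. Line 961C is a myeloblast line from the NUP98-PHF23 AML of mouse 961, also on C57BL/6. The SCL-LMO1 line, 7298/2, is a lymphoblast line that comes from an SCL-LMO1 pre-T LBL on a C57BL/6+C3H hybrid background and was the labelled control. All 4 lines grow without cytokines, and each NP23 line stands for the leukaemia of 1 mouse. Each line gave 1 library per mark, so oncogene, lineage, strain and library cannot be told apart between lines, and no difference between lines was tested. NP23 was mapped in 961C alone, in a sample whose title names the V5 tag. The labelled cell types were not checked against markers, since the genes under the peaks were not analysed here.

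H3K27me3 is the methylation of histone H3 at lysine 27 that the Polycomb repressive complex PRC2 writes. A second complex, PRC1, binds the mark through chromodomain proteins and compacts the chromatin. In blood cells Polycomb keeps regulators of other lineages and of early development silent, and the Hox gene clusters are its best known targets. H3K4me3 marks active promoters and is laid down by the Trithorax group, which opposes Polycomb. Promoters that carry both marks are called bivalent. Coordinates below are those of the mouse build mm9, counted from 1. Sequences under the regions were likewise not analysed here.

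The 4 H3K27me3 lists held 8412 peaks in 748T, 5600 in 106A, 19469 in 961C, with 4875 for SCL-LMO1. Their median peak reached 10 to 12 reads, so most peaks stand on few reads, and read totals of the libraries are unknown. Shared regions took in 22.2% of the 748T peaks, 22.9% of the 106A peaks, 11.8% of the 961C peaks and 13.7% of the SCL-LMO1 peaks. By bases the shares were 31.1%, 34.6%, 20.5% and 19.6% in the same order of lines. The 106A and 748T lists thus lay in shared regions to a larger part than the long 961C list and the SCL-LMO1 list, the shortest.

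Most shared regions had the mark in 2 lines: 2278 of 2612 (87.2%). Another 288 had it in 3 lines (11.0%) and 46 in all 4 (1.76%). The most frequent combination was 748T with 961C, at 1096 regions (42.0% of the shared). It was followed by 106A with 961C at 503, 961C with the SCL-LMO1 line at 243, and the NP23 pre-T pair of 748T and 106A at 227. The SCL-LMO1 line met 106A at 135 regions and 748T at 74.

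Among the regions of 3 lines, the NP23 lines 748T, 106A and 961C shared 163. The combination 106A, 961C and SCL-LMO1 had 75 regions, 748T, 961C and SCL-LMO1 had 42, and the 3 pre-T lines without 961C had 8. A peak of 961C was present in 2168 of the shared regions (83.0%), one of 748T in 1656 (63.4%), one of 106A in 1157 (44.3%) and one of the SCL-LMO1 line in 623 (23.9%). The order of 961C, 748T, 106A and SCL-LMO1 is that of the number of peaks in their lists. The count rests on the long lists: without 961C 754 shared regions were left, and without 748T 1211. With every list cut to its 4875 tallest peaks, 1286 regions were shared and 27 were in all 4 lines.

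**Figure D1:**
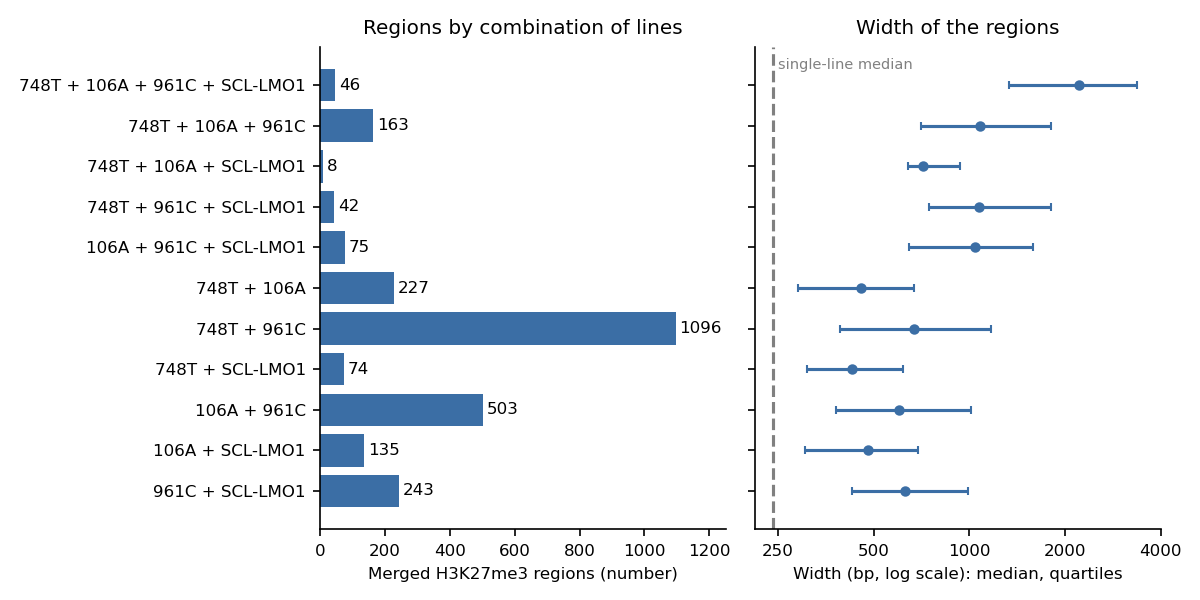
Left, bars give the number of merged H3K27me3 regions for each combination of 2, 3 or 4 lines. Right, points give the median width in bp on a log axis, with whiskers from the lower to the upper quartile, and the dashed line is the median of single-line regions (242 bp). The pair 748T and 961C stands out with 1096 regions, and the 46 regions of 4 lines are the widest, with a median of 2219 bp.

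Width grew with the number of lines. The median was 2219 bp for regions of 4 lines (interval 1607 to 2890), 1058 bp for 3 lines (947 to 1137), 599.5 bp for 2 lines (571 to 619) and 242 bp for single-line regions (239 to 244). Of the shared regions 770 (29.5%) were 1 kb or wider, against 1362 of the single-line regions (4.23%). Merging peaks of more lines widens a region by construction, so the gradient is in part set by the rule. Of all bases in shared regions, 35.4% lay under peaks of 2 or more lines, and the median shared stretch was 210 bp. A base common to every line of its combination was found in 216 of the 288 regions of 3 lines and in 19 of the 46 regions of 4 lines. In the other 27 regions of 4 lines, peaks were joined through one another.

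At the edge of the rule, the smallest overlap inside a shared region was 1 bp, and 154 shared regions (5.90%) had under 50 bp beneath peaks of 2 or more lines. Just outside it, the nearest peak of another line touched the region without overlap (gap of 0 bp), and 252 single-line regions had such a peak under 50 bp away. Within 1 kb, 14.1% of single-line regions had a peak of another line.

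The 961C peaks covered most of a shared region where they were present. In shared regions the 961C peaks covered a median of 94.1% of the region, against 53.8% for 748T, 58.25% for 106A and 50.9% for the SCL-LMO1 line. In the 46 regions of 4 lines the medians were 87.8%, 25.5%, 51.0% and 25.3% in the same order of lines. The median length under 961C peaks there was 1799.5 bp, against 460 bp for 748T, 846 bp for 106A and 436.5 bp for the SCL-LMO1 line.

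Peaks of 748T, 106A and 961C were also somewhat taller where more lines shared them. In 961C the median of the tallest pileup per region was 20 reads in regions of 4 lines, 16 in regions of 3, 14 in regions of 2 and 12 in single-line regions. In 748T the medians were 16, 15, 13 and 12 reads, in 106A 14, 12, 11 and 10 reads, and for the SCL-LMO1 line 13, 12, 12 and 12 reads. Peak by peak, of 961C peaks of 20 reads or more 33.5% were in shared regions, against 3.23% of those under 10 reads. In 106A the same shares were 57.5% (23 of 40 peaks) and 13.6%. The tallest pileup of a line is taken over that line's own peaks in a region, which can be more than 1 in a shared region. This order is thus in part set by construction. In shared regions 748T had 1870 peaks in 1656 regions, 106A 1282 in 1157 and 961C 2299 in 2168. Over all lines together, the median number of peaks was 6 in regions of 4 lines, 3 in regions of 3, 2 in regions of 2 and 1 in single-line regions. Heights are raw reads without scaling to depth. Where heights of several lines are listed together, they are not a comparison between lines.

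The second track of the lists, read as background from its low values, stood higher in shared than in single-line regions in 3 of 4 lines. The value of a region is the highest mean of this track among the line's own peaks there. A shared region can hold more than 1 such peak and a single-line region holds 1, so this order is in part set by construction. The median of this value was 0.645 against 0.453 reads in 106A, 0.282 against 0.0970 in 961C, 0.492 against 0.395 in the SCL-LMO1 line, and 0 against 0 in 748T. The share above 1 read was 24.55% against 13.9% in 106A, 3.14% against 1.79% in 961C and 11.7% against 9.70% for SCL-LMO1. In 748T it was 0.242% against 0.627%. With all peaks above 1 read in that track left out, the same rule gave 2311 shared regions.

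The widest region of 4 lines lay on chromosome 11 from 118903000 to 118913558 (10559 bp). A single 961C peak spanned all of it and reached 23 reads. The 748T library had 5 peaks there, which covered 19.4% and reached 18 reads, and 106A had 9, which covered 43.3% and also reached 18 reads. The SCL-LMO1 line had 1 peak, over 2.92% of the region, of 13 reads. The SCL-LMO1 line therefore marked a small stretch of this domain, and no base was under peaks of all 4 lines. H3K4me3 touched the region in every line, at 5.01% of its bases in 748T, 2.55% in 106A, 1.31% in 961C, with 1.89% for SCL-LMO1. It was the only region of 4 lines with H3K4me3 of all 4.

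The next 9 by width were 3479 to 7346 bp wide. Regions on chromosome 11 lay at 98179601 to 98186946, 96038799 to 96044090 and 102441879 to 102445983, and regions on chromosome 2 at 33484117 to 33488570 and 33480470 to 33483948. The others lay on chromosome 8 (114249981 to 114255839), chromosome 6 (83656106 to 83661181), chromosome 15 (102787139 to 102791257) and chromosome 9 (107567331 to 107571244). In these 9, 961C covered 73.6% to 99.8% of the region, 748T 7.11% to 39.2%, 106A 11.8% to 78.0% and the SCL-LMO1 line 4.08% to 38.2%. Tallest pileups were 18 to 23 reads in 961C, 11 to 20 in 748T, 10 to 16 in 106A and 12 to 16 in the SCL-LMO1 line.

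Marks lay side by side in few of these 9. H3K4me3 of 748T covered 3.24% of the region on chromosome 8 and 16.8% of that on chromosome 9, and no line had H3K4me3 in the remaining 7. Among the 9, the evenness of coverage differed. At chromosome 11 from 96038799, 106A and 961C covered like parts of the region (78.0% and 78.1%), with 29.8% for 748T and 7.60% for SCL-LMO1. At chromosome 2 from 33480470, 748T covered 13.6%, 106A 21.4% and the SCL-LMO1 line 38.2%, beside 92.8% by 961C.

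In most combinations of fewer lines, too, the widest member was a broad peak of a single line with a short one inside it. The widest region of 748T with 961C, on chromosome 11 from 97393474 to 97399610 (6137 bp), was covered whole by 961C (33 reads) and to 11.1% by 748T (19 reads). H3K4me3 covered 13.4% of it in 748T, 18.5% in 106A, none in 961C and 3.54% for SCL-LMO1. The widest region of 106A with 961C, on chromosome 5 from 140025573 to 140031224 (5652 bp), was covered whole by 961C and to 10.5% by 106A, and had no H3K4me3.

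For 961C with the SCL-LMO1 line it was chromosome 9 from 37265666 to 37269629 (3964 bp), where the SCL-LMO1 peak held 85 bp. The widest region of 3 lines was 9543 bp long, on chromosome 5 from 148077708 to 148087250, with 961C over 98.1% of it, 106A over 13.3% and the SCL-LMO1 line over 5.30%. Of the other combinations of 3 lines, the NP23 lines had their widest on chromosome 7 (51696556 to 51702413, 5858 bp), and 748T, 961C and SCL-LMO1 on chromosome 8 (114256025 to 114261734, 5710 bp). The 3 pre-T lines had theirs on chromosome 6 (146982798 to 146984202, 1405 bp). There coverage was even, with 72.9% in 748T, 54.3% in 106A and 55.7% for SCL-LMO1, and no line had H3K4me3.

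Pre-T pairs without 961C gave both even and uneven regions. The widest of 748T with 106A, on chromosome 3 from 94716641 to 94719070 (2430 bp), was covered to 71.9% by 748T (23 reads) and to 90.1% by 106A (17 reads). The widest of 106A with the SCL-LMO1 line, on chromosome 15 from 102840066 to 102843398 (3333 bp), was covered whole by 106A and to 11.2% by the SCL-LMO1 line. The widest of 748T with the SCL-LMO1 line, on chromosome 16 from 91054399 to 91056468 (2070 bp), was covered whole by the SCL-LMO1 line (29 reads) and to 6.47% by 748T (14 reads). Its second track in the SCL-LMO1 line averaged 2.36 reads, against a median of 0.492 over the shared regions of that line, and the part of this in the peak was not tested.

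Shared regions were spread unevenly over the chromosomes. Chromosome 11 held the most, 364 (13.9% of the shared, against 10.6% of the single-line regions) or 2.99 per Mb, where the length of a chromosome is taken up to its last listed peak. Chromosome 15 followed at 2.11 per Mb (218 regions) and chromosome 2 at 1.59 per Mb (289 regions). Of the 46 regions of 4 lines, 10 lay on chromosome 11, 8 on chromosome 15 and 5 each on chromosomes 2, 6 and 9.

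Among chromosomes 1 to 19 and X, the part of a chromosome's own H3K27me3 regions that was shared reached 11.9% on chromosome 15 (10.5 to 13.5), 10.6% on chromosome 16 (8.96 to 12.5) and 9.66% on chromosome 11 (8.74 to 10.7). The lowest shares were 1.26% on the X chromosome (7 of 555 regions, 0.509 to 2.58), 2.67% on chromosome 18 (1.70 to 3.99) and 4.37% on chromosome 13 (3.29 to 5.67). On the X chromosome 748T had 46 regions, 106A 170, 961C 339 and the SCL-LMO1 line 7. The second track over H3K4me3 peaks of the X chromosome stood at 0.460 times the autosomal level in 748T, 0.658 in 106A, 0.846 in 961C and 0.516 for SCL-LMO1. Its part in the low share was not tested. On chromosome 16 the same track stood at 1.143 times the autosomal level for SCL-LMO1, 1.091 in 106A, 1.009 in 961C and 0.979 in 748T. A peak of SCL-LMO1 was present in 48 of the 128 shared regions there, and the part of the track was not tested. On chromosome 15 the second track over H3K4me3 peaks stood at 1.47 times the autosomal level in 748T, against 0.990 to 1.098 times in the other lines. A peak of 748T was present in 158 of the 218 shared regions there. The part of this track in the count was not tested, and without chromosomes 14 and 15, the only ones where the 748T track is that high, 2292 regions were shared; this alternative was chosen after seeing the data.

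**Figure D2:**
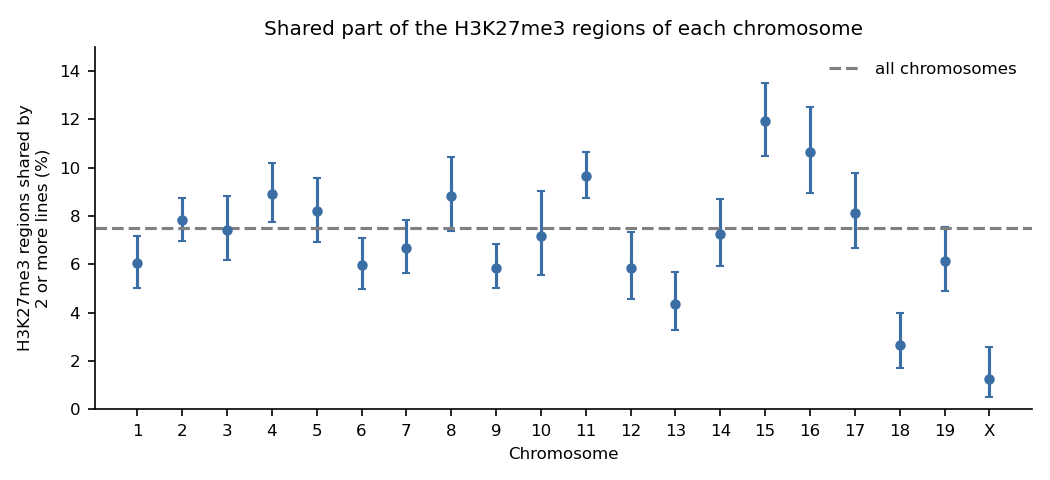
Points give the percentage of merged H3K27me3 regions that are shared on each chromosome, with exact 95% intervals, and the dashed line is the value over all chromosomes (7.50%). Of the chromosomes plotted, chromosome 15 is highest at 11.9% and the X chromosome lowest at 1.26%.

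Shared regions lay in groups. With gaps under 50 kb, 1886 of 2612 (72.2%, 70.4 to 73.9) had another shared region as neighbour, in 508 clusters. The same measure was 73.4% among the 6542 regions of 748T alone, 67.65% among the 4318 of 106A alone, 63.4% among the 4206 of the SCL-LMO1 line alone and 91.0% among the 17170 of 961C alone. Grouping of this degree was therefore also seen in single-line regions, which are more numerous. In clusters of 10 or more, of which there were 24, lay 396 shared regions (15.2%). The pair 748T and 961C taken by itself gave 64.2% in clusters (704 of 1096). The shares were 46.3% for 748T with 106A (of 227), 40.2% for 106A with 961C (of 503) and 19.3% for 961C with the SCL-LMO1 line (of 243). Each pair was grouped among its own members alone, and the share in clusters can rise with the number of members. The part of number in this order was not tested. Without 961C 53.45% of the shared regions lay in clusters.

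The largest cluster ran over 325.3 kb of chromosome 15 (102522725 to 102848052) and held 48 shared regions, 77.9 kb in all. A peak of 961C was present in 41 of them, one of 106A in 40, one of 748T in 23 and one of the SCL-LMO1 line in 15. Over the whole stretch H3K27me3 covered 77.6 kb in 961C, 39.9 kb in 106A, 17.6 kb in 748T and 9.66 kb in the SCL-LMO1 line. All 4 lines had the mark at 5 of the regions, and 18 were in 3 or 4 lines. Of the 48, 1 overlapped H3K4me3 of 748T and 1 that of 961C, too few to set against the shares over all merged regions, 3.25% and 1.66%. A further 11 shared regions lay close by, from 102926289 to 103007580.

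The next 2 clusters differed in the lines that took part. On chromosome 16 from 91732070 to 91892550, 38 shared regions held 961C in all 38, 748T in 35 and the SCL-LMO1 line in 4. No H3K27me3 peak of 106A fell anywhere in these 160.5 kb, and no line but SCL-LMO1 had H3K4me3 there, with 3 peaks over 1.24 kb. On chromosome 11 from 61352550 to 61448092, 32 shared regions held 961C in 31, 748T in 28, 106A in 14 and the SCL-LMO1 line in 2. The tallest peaks there reached 46 reads in 961C, 48 in 748T, 17 in 106A and 12 for SCL-LMO1. No line had an H3K4me3 peak in that cluster.

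On chromosome 8 from 124128494 to 124205382, 24 shared regions held 961C in 24, 748T in 22 and 106A in 5, and neither mark of the SCL-LMO1 line was listed there. H3K4me3 was absent in the NP23 lines as well. H3K27me3 covered 35.4 kb in 961C, 22.3 kb in 748T and 2.01 kb in 106A.

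In the remaining one of the 5 largest clusters, on chromosome 11 from 95974833 to 96138493, the mark of 961C changed along the chromosome. It held 28 shared regions, with 106A in 23, 748T in 19, 961C in 14 and the SCL-LMO1 line in 11. Of the 17 regions that lie before position 96082729, where the last H3K27me3 peak of 961C ends, 14 held 961C, 13 held 106A, 10 held 748T and 8 held the SCL-LMO1 line. Of the 11 regions after it none held 961C, while 10 held 106A, 9 held 748T and 3 held the SCL-LMO1 line.

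Beyond that point 961C had broad H3K4me3, and before it a single H3K4me3 peak of 1351 bp without NP23. A peak of 9140 bp began at 96111545 and was 89.4% covered by NP23, and a domain of 52598 bp that runs past the cluster began at 96132114 and was 97.1% covered by NP23. Of the 11 later regions 5 overlapped H3K4me3 of 961C, and none overlapped H3K4me3 of 748T, 106A or the SCL-LMO1 line. In the pre-T lines H3K27me3 was listed on both sides of 96082729, and within the cluster, 961C had it on the lower side alone. All of this rests on 1 library per line and mark.

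**Figure D3:**
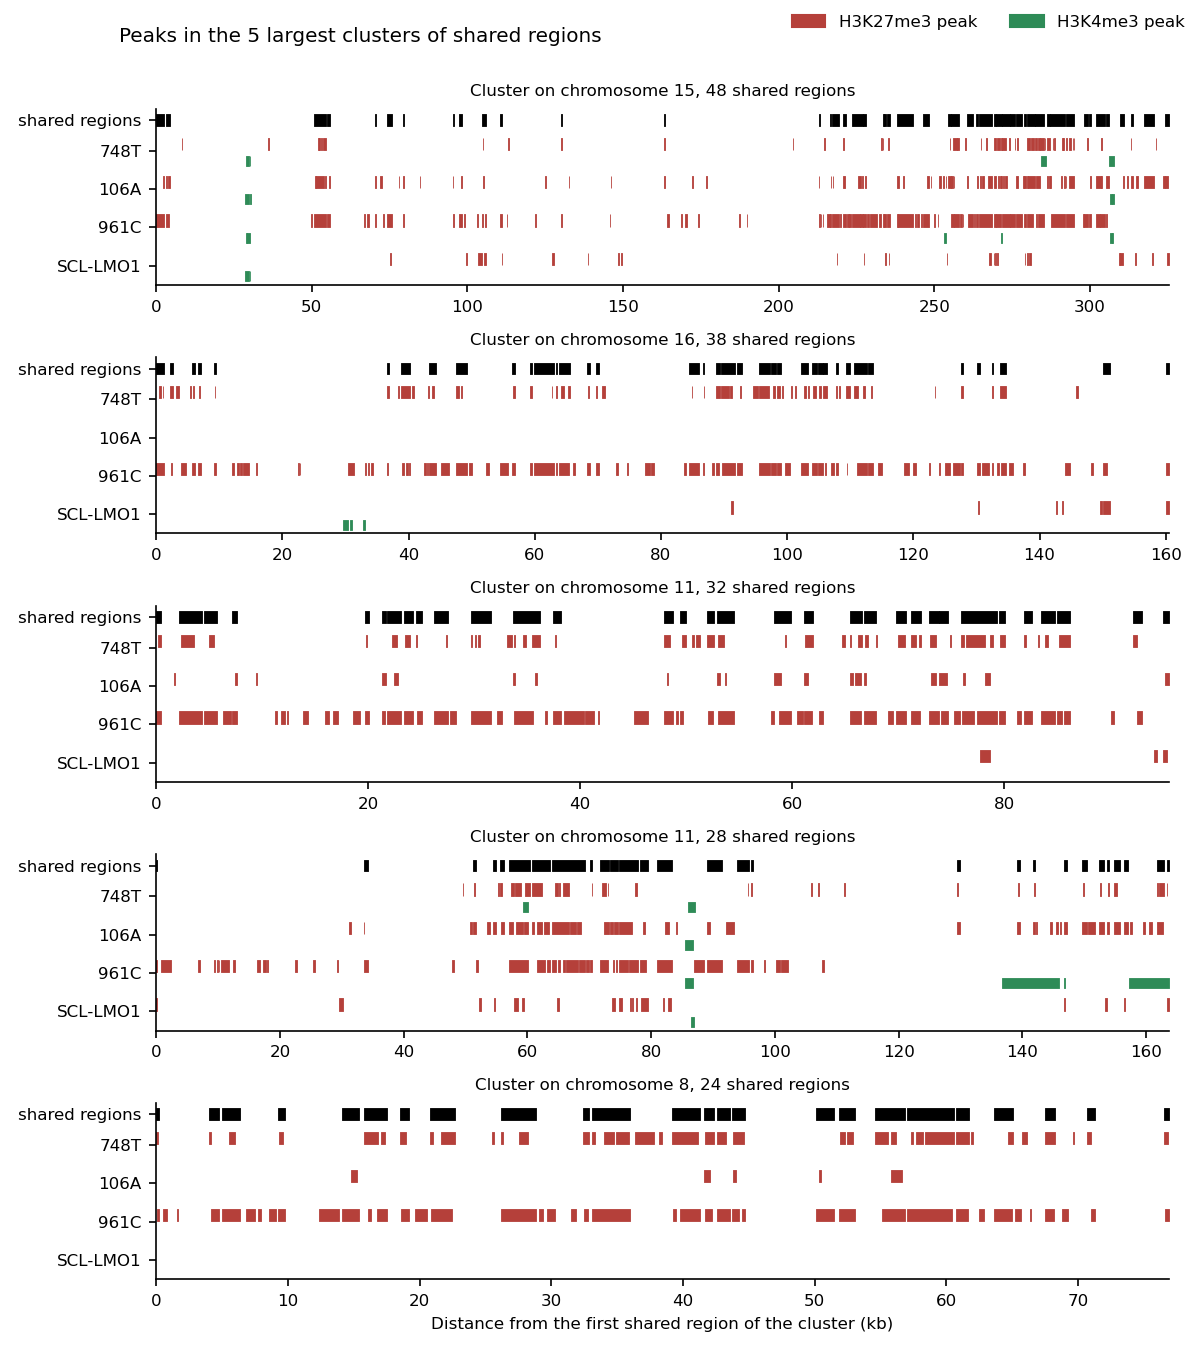
Peaks in the 5 largest clusters, drawn by distance in kb from the first shared region. Black bars are shared regions, red bars H3K27me3 peaks and green bars H3K4me3 peaks of each line. In the chromosome 11 cluster of 28 regions, red bars of 961C end before its broad green bars begin, and red bars of 748T and 106A continue. In the chromosome 16 cluster 106A has no bar.

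H3K4me3, which did not enter the choice of regions, was rare at shared regions. At least 1 line had it at 227 of 2612 (8.69%, 7.64 to 9.84), against 1586 of 32236 single-line regions (4.92%), where 5.2% of all merged regions have it. In 748T it met 170 shared regions (6.51%, 5.59 to 7.52), against 2.99% of single-line regions and 3.25% of all merged regions. In 106A it met 106 (4.06%, 3.33 to 4.89), against 2.47%, with 2.59% of all merged regions. In 961C and the SCL-LMO1 line the shares were near the background: 45 (1.72%, 1.26 to 2.30) against 1.65% in 961C, where 1.66% of all merged regions have it, and 46 (1.76%, 1.29 to 2.34) against 1.95% in the SCL-LMO1 line, where 1.94% have it. The shares differed between combinations. In regions of 748T with 961C, H3K4me3 of 748T met 119 of 1096 (10.9%, 9.08 to 12.85), that of 106A 85 (7.76%, 6.24 to 9.50) and that of the SCL-LMO1 line 31 (2.83%), each the highest share among pairs. H3K4me3 of 961C met 22 of them (2.01%), against 10 of 227 regions of 748T with 106A (4.41%) and 2 of 74 of 748T with the SCL-LMO1 line (2.70%). Regions of 106A with 961C had H3K4me3 of 748T at 18 of 503 (3.58%, 2.13 to 5.60) and that of 106A at 9 (1.79%). Regions of 961C with the SCL-LMO1 line had it of any line at 3 of 243 (1.23%), and those of 106A with the SCL-LMO1 line at 2 of 135 (1.48%). In regions of 4 lines H3K4me3 of 748T met 7 of 46 (15.2%, 6.34 to 28.9), against 7.29% in regions of 3 lines (4.57 to 10.9) and 6.23% in regions of 2 (5.28 to 7.31). The pair 748T and 961C thus held 154 of the 227 shared regions with H3K4me3 of any line.

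Leaving out a list of H3K27me3 moved these shares. Without 961C they were 2.12% in 748T and 0.796% in both 106A and the SCL-LMO1 line. Without 748T they were 1.49% in 106A, 0.908% in 961C and 1.07% for SCL-LMO1.

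Within classes of width of 200 bp or more, shared regions of all combinations together had a lower share with H3K4me3 than all single-line ones in each of the 4 lines, though most intervals overlap. From 1 to 2 kb, H3K4me3 of 748T met 12.8% of 541 shared regions, against 13.8% of 1120 single-line regions, and that of the SCL-LMO1 line met 2.77% against 8.66%. At 2 kb or more the shares were 19.7% of 229 against 22.3% of 242 for 748T, 7.42% against 18.6% for 106A, 3.06% against 7.44% for 961C and 3.06% against 14.05% for the SCL-LMO1 line. The exact intervals of the SCL-LMO1 line do not overlap in the 3 classes of 500 bp or more, nor do those of 106A at 2 kb or more, nor those of 748T and 106A from 500 bp to 1 kb. Under 500 bp all shares of shared and single-line regions were under 3% in every line. The wide single-line regions are mostly broad peaks of 961C, 232 of the 242 of 2 kb or more. From 1 to 2 kb, H3K4me3 of 748T met 15.1% of 1019 single-line regions of 961C, against 0.990% of 101 of the other lines. From 500 bp to 1 kb, shared regions had a share of 4.08% for 748T, against 8.39% in single-line regions of 961C and 1.67% in those of the other lines.

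Taken by combination, at widths of 1 kb or more, the order differed in part of the comparisons. H3K4me3 of 748T met 19.7% of 244 regions of 748T with 961C from 1 to 2 kb (14.9 to 25.2), against 15.1% of single-line regions of 961C (13.0 to 17.5). At 2 kb or more it met 27.8% of 90 (18.85 to 38.2), against 22.4% of 232 (17.2 to 28.3). H3K4me3 of 106A met 15.2% from 1 to 2 kb (10.9 to 20.3), against 10.5% (8.69 to 12.55). Each of these pairs of intervals overlaps. At 2 kb or more, H3K4me3 of 106A met 12.2%, against 18.5% of single-line regions of 961C. That of 961C met 2.05% against 3.14% from 1 to 2 kb, and 4.44% against 7.33% above. For the SCL-LMO1 line the shares were 3.69% (1.70 to 6.89) against 9.52% (7.79 to 11.5), and 5.56% against 13.8%. Its intervals from 1 to 2 kb do not overlap. The direction of the difference at like width thus depended on the combinations set side by side, and on the H3K4me3 line.

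**Figure D4:**
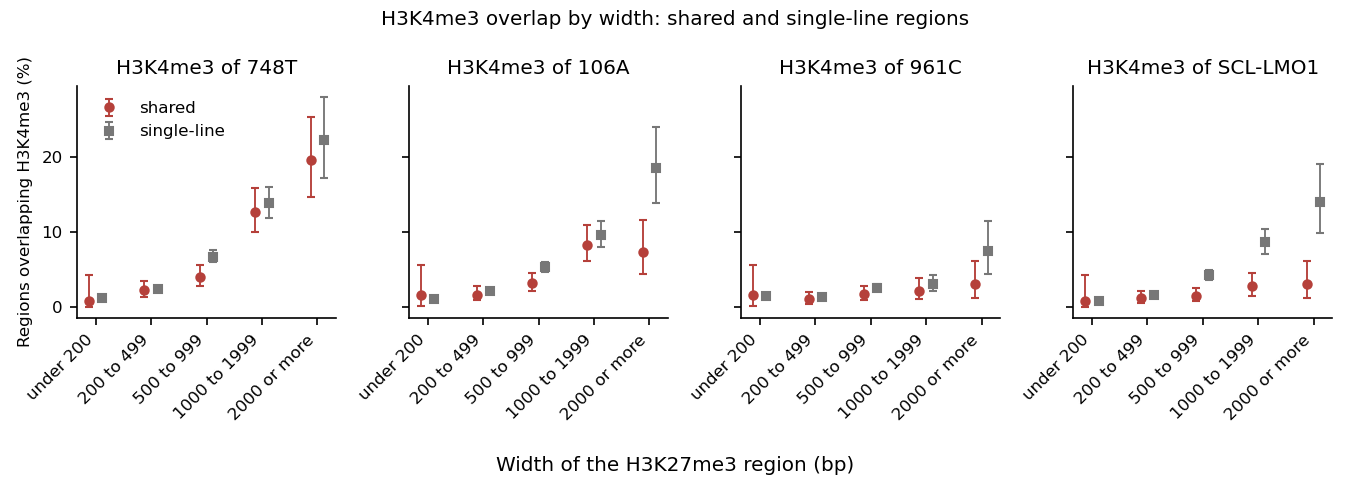
Each panel gives the percentage of H3K27me3 regions that overlap H3K4me3 of one line, by width class of the region in bp, for shared regions (red circles) and single-line regions (grey squares), with exact 95% intervals. Shares are higher in wide than in narrow regions of both kinds, and in the widest class shared regions lie below single-line ones in all 4 panels.

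The share of regions with H3K4me3 of a line was higher where that line had its own H3K27me3 peak in 748T, and lower there in the other 3 lines. In 748T, H3K4me3 met 149 of 1656 shared regions with H3K27me3 of 748T (8.998%, 7.66 to 10.5), against 21 of 956 without it (2.20%, 1.37 to 3.34). In 106A it met 19 of 1157 with its H3K27me3 (1.64%, 0.992 to 2.55), against 87 of 1455 without (5.98%, 4.82 to 7.32). In 961C the numbers were 31 of 2168 (1.43%, 0.974 to 2.02) against 14 of 444 (3.15%, 1.73 to 5.23), and for the SCL-LMO1 line 3 of 623 (0.482%, 0.0994 to 1.40) against 43 of 1989 (2.16%, 1.57 to 2.90). The intervals overlap in 961C alone. Whether the lines differ in this was not tested.

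The regions behind these numbers overlap largely. Of the 149 regions with both marks of 748T anywhere in the merged region, 146 also had H3K27me3 of 961C (146 of 1347, 10.8%, median width 749 bp). Without 961C, 3 of 309 had both (0.971%, median width 456 bp). Of the 87 regions of 106A with H3K4me3 and no H3K27me3, 85 were regions of 748T with 961C. The order in 106A turned without the 748T list, to 16 of 925 with its H3K27me3 (1.73%) against 2 of 286 without (0.699%). Without 961C it was 5 of 644 (0.776%) against 1 of 110 (0.909%). The order in 748T stayed when 961C was left out, with 15 of 549 (2.73%) against 1 of 205 (0.488%). The smaller counts here are 1 or 2 regions, so these orders rest on few regions. In the width class of 1 to 2 kb the 748T shares were 16.5% against 5.46%, and those of 106A 3.11% against 12.03%.

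**Figure D5:**
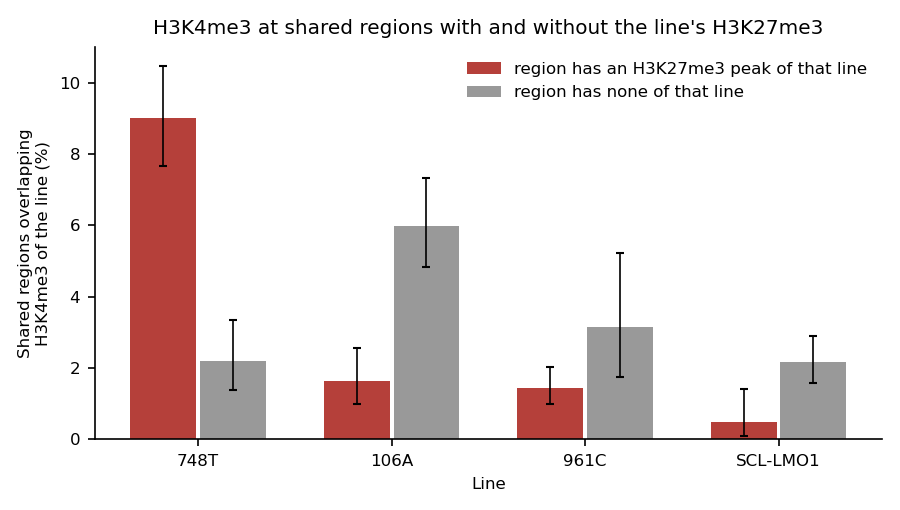
Bars give the percentage of shared regions that overlap H3K4me3 of each line, for regions with an H3K27me3 peak of that line (red) and without one (grey), with exact 95% intervals. The red bar is the higher one in 748T alone, at 8.998% against 2.20%.

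Seen by the peaks themselves, 90 of the 1870 H3K27me3 peaks of 748T in shared regions overlapped its H3K4me3 (4.81%), against 56 of 6542 in single-line regions (0.856%). In 106A it was 12 of 1282 (0.936%) against 14 of 4318 (0.324%), and in 961C 30 of 2299 (1.30%) against 371 of 17170 (2.16%). No H3K27me3 peak of the SCL-LMO1 line overlapped its H3K4me3. By the limit of 3 counts of the total, 0 of 669 in shared regions allows a share of up to 0.448%, and 0 of 4206 in single-line regions one of up to 0.0713%. The exact upper bounds are 0.550% and 0.0877%.

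The H3K4me3 peaks at shared regions were lower than the median of their lists, as were those at single-line regions. In 748T the 169 peaks at shared regions had a median height of 30 reads, against 49 at single-line regions and 76 over the whole list. In 106A the medians were 78, 93 and 97 reads, in 961C 21.5, 21 and 38 reads, and for the SCL-LMO1 line 53, 74 and 76 reads. Their median width was 732 bp in 748T, against 984 bp at single-line regions and 1013 bp over the list. For 106A the widths were 1043, 1386 and 1133.5 bp, for 961C 650, 431 and 1033 bp, and for SCL-LMO1 1113, 1381.5 and 1067 bp. With the taller 50% of each H3K4me3 list alone, the shares of shared regions with H3K4me3 were 0.727% in 748T, 1.34% in 106A, 0.613% in 961C, with 0.651% for SCL-LMO1.

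Most shared regions lay away from H3K4me3. An H3K4me3 peak of 748T lay within 5 kb of 23.6% of shared regions, against 15.1% of single-line regions. For 106A the shares were 15.9% against 11.7%, for 961C 12.2% against 10.3%, and for the SCL-LMO1 line 11.5% against 11.5%. At 2385 shared regions (91.3%) no line had an overlapping H3K4me3 peak.

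Both marks were found in the same line at 167 shared regions (6.39%, 5.49 to 7.40), against 441 single-line regions (1.37%, 1.24 to 1.501) and 1.74% of all merged regions. A shared region has 2 or more lines in which both marks can meet, and a single-line region has 1. The shares are also unlike measures. In shared regions, H3K4me3 of a line was counted anywhere in the merged region. It could thus lie under a peak of another line alone. In a single-line region it overlapped the line's own peak. Counted over the merged region, both marks were found in 2 or more lines at 31 shared regions (1.19%) and in 3 or more at 3. These 3, named after their values were seen, are the domain of 4 lines on chromosome 11 from 118903000, chromosome 4 from 3863261 to 3864772 and chromosome 8 from 73387999 to 73389075. On chromosome 4, H3K4me3 covered 35.85% of the region in 748T, 66.8% in 106A, 16.5% in 961C, with 66.1% for SCL-LMO1, which had no H3K27me3 there. On chromosome 8 it covered 37.7% in 748T, 100% in 106A, which had no H3K27me3 there, 8.26% in 961C and 2.69% for SCL-LMO1. In SCL-LMO1 the marks lay apart at this region and at the chromosome 11 domain, since none of its H3K27me3 peaks overlapped its H3K4me3. At 60 regions (2.30%) H3K4me3 was present in a line without H3K27me3, and no line had both marks. They are the part of the 227 shared regions with H3K4me3 of any line (8.69%) outside the 167. Among single-line regions 1586 had H3K4me3 of any line (4.92%), and 441 of these had both marks in their line (1.37%). Over all merged regions the shares were 5.2% and 1.74%.

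Of the 444 shared regions without H3K27me3 of 961C, 14 overlapped H3K4me3 of 961C (3.15%, 1.73 to 5.23), where 1.66% of all merged regions do. H3K4me3 of 748T met 3 (0.676%, with 3.25% over all merged regions), that of 106A 2 (0.450%, with 2.59%) and that of the SCL-LMO1 line 1 (0.225%, with 1.94%). Of the 14, 5 are in the chromosome 11 cluster after 96082729. H3K4me3 of 961C covered 100% of 7 of the 14, among them chromosome 11 from 83275981 to 83276455, chromosome 13 from 22096558 to 22097631 and chromosome 16 from 95678300 to 95680144, named after their values were seen. No other line had H3K4me3 at these 3.

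NP23 was rare at H3K27me3 regions of either kind. It overlapped 6 of 2612 (0.230%, 0.0843 to 0.499), against 166 of 32236 single-line regions (0.515%), and 0.494% of all merged regions. Of the 166, 155 were among the 17170 regions of 961C alone (0.903%, 0.767 to 1.06), the line in which NP23 was mapped. Shared regions with H3K27me3 of 961C had NP23 at 2 of 2168 (0.0923%, 0.0112 to 0.333), and those without it at 4 of 444 (0.901%, 0.246 to 2.29). None of the 334 regions of 3 or 4 lines held NP23, which allows a share of up to 0.898% by the limit of 3 counts of the total. Of the 6, 4 lie in the chromosome 11 cluster, at 96114005, 96116616, 96136533 and 96138149. There 961C had no H3K27me3, and its H3K4me3 covered each region whole. The other two, both of 748T with 961C, are short: 264 bp on chromosome 6 (124722803 to 124723066) and 175 bp on chromosome 14 (9439065 to 9439239). At the region on chromosome 14 the 961C peak reached 69 reads with a second track of 7.90 reads. The 748T peak there reached 16 reads with a second track of 0.00654 reads.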

How the data were processed

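Chromatin immunoprecipitation libraries of 4 lines were used through 9 peak lists deposited by the authors: 4 for H3K27me3, 4 for H3K4me3 and 1 for NP23. The 4 input samples were not used. Reads were single-end, per the labels' protocols. CASAVA 1.9, BWA 0.5.9-r26 and build mm9 are named in the submitters' processing notes. No source used here names the peak caller. Each deposited row gives a region, the mean and maximum pileup height in reads, and the same for a second track, which 5 of 109165 rows lack. Heights carry no scaling to depth.

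H3K27me3 peaks were merged by overlap of at least 1 bp. Members and lists were chosen with earlier results of these data known. Named regions are the 10 widest of 4 lines, the widest of every other combination and the 5 largest clusters. Outside this rule, the 6 shared regions with NP23 and the group of 11 close to the largest cluster are also named. Other exceptions are marked in the text. Gene lists were not used, since no mm9 annotation was used. With 1 library per line and mark no test was run. Merging and overlap steps were tested on simulated data. Python 3.11.15, numpy 2.4.6, scipy 1.17.1 and matplotlib 3.10.9 were used.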

Additional observations from a re-analysis of the deposited data

How the results depend on the processing

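No paired analysis was possible because the labels give no replicate numbers, those used only name the libraries in sample order, and the results come from no test. Of 94 recomputed values 42 kept within their interval or within 1.5 times the count, and 52 moved. Requiring an overlap of 50% of the shorter peak, or autosomes alone, moved none of the results, nor did leaving out chromosomes 14 and 15, a choice made after seeing the data. For the counts, leaving out chromosomes only takes away the regions on them, so it cannot show what the 748T second track does there. Leaving out each line in turn gave 754 to 2161 shared regions, median widths of 517 to 707 bp, 53.45% to 71.7% in clusters, and H3K4me3 shares of 2.12% to 8.47% in 748T, 0.796% to 4.86% in 106A, 0.908% to 1.85% in 961C and 0.796% to 2.35% in the SCL-LMO1 line. No region of 4 lines can be counted with a line left out, and a left-out line has no H3K4me3 share of its own. Merging peaks within 1 kb gave 92 regions of 4 lines, a median width of 1459 bp, 65.4% in clusters, and H3K4me3 shares of 8.80%, 4.98%, 2.54% and 2.90% in 748T, 106A, 961C and SCL-LMO1. Equal lists of the tallest peaks gave 1286 shared regions, 27 of 4 lines, 767.5 bp, 61.7% in clusters, and H3K4me3 shares of 8.32% in 748T and 5.21% in 106A. The taller 50% of each H3K27me3 list gave 1241, 14, 797 bp and 65.4%, with 8.22% and 5.16%. A second track of at most 1 read gave 674 bp and 69.1%. Cluster gaps of 25 and 100 kb gave 65.8% and 78.2%. H3K4me3 over 50% of the region was found at 1.57%, 1.88%, 0.574% and 0.919% in 748T, 106A, 961C and SCL-LMO1, within 1 kb at 11.5%, 7.04%, 4.10% and 3.98%, and with the taller 50% of H3K4me3 peaks at 0.727%, 1.34%, 0.613% and 0.651%. Fewer peaks or lists leave fewer regions to share by construction, and the cause of the other moves was not tested. Read depth is unknown, and the low pileups limit what could be listed in each line.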
